A study of Mus musculus with 14 samples.

Results

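The 9 genes described here encode acute phase proteins (Lcn2, Saa3, Hp and Serpina3n), metallothioneins (Mt1 and Mt2), transcription factors that switch on acute phase genes (Cebpb and Cebpd) and a fibrinogen-like protein (Fgl2). Their members on the array were chosen by annotation: all probe sets assigned to exactly 1 of these symbols were taken, which gave 13 of the 45101 probe sets of the array. The symbols themselves were proposed with results of these data in view, so the differences between overloaded and basal hearts are given below as a description: the number of probe sets past limma's threshold stands beside the share over the whole array, and no p is given for a single gene. All 13 probe sets passed the filter on low values, a log2 value above 5.75 (the median of all deposited values) on 3 or more arrays, which left 24525 probe sets for testing.

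The RNA was total RNA of the left ventricle of male C57BL/6 mice, hybridised to the Affymetrix Mouse430_2 array. Hearts came from knockout (KO) animals without Hsp22, the small heat shock protein (also called H11 kinase) that Hspb8 encodes, or from wild type (WT) animals. Animals of both genotypes were either subjected for 3 days to pressure overload by TAC, a constriction of the aorta against which the left ventricle has to pump, or were sampled as basal animals. This gave 4 TAC KO, 4 TAC WT, 3 basal KO and 3 basal WT arrays. The design asks what loss of Hsp22 changes in the heart at rest and under stress. The labels name no sham operation, so surgery itself and pressure overload cannot be told apart, and they give neither the animals' age nor the part of Hspb8 that was removed.

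The acute phase response is the change in secreted proteins that follows injury or infection. In the liver it is set off mainly by interleukin-6 and interleukin-1, which act through STAT3, NF-kB and the C/EBP factors, and several of the same genes are also expressed outside the liver, by immune cells, fibroblasts, fat cells and stressed heart muscle cells. Metallothioneins are small cysteine-rich proteins that bind zinc and copper and buffer oxidative stress. Their genes respond to zinc through the factor MTF1, which binds metal response elements in their promoters, and to glucocorticoids.

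Promoters are shown for Mt2, Mt1, Lcn2 and Saa3. Of the metallothionein pair only Mt2 separated TAC KO from basal KO arrays, and whether its response differs from that of Mt1 was not tested. Lcn2 and Saa3 are the acute phase genes with a C/EBP-type match. Each line gives the 250 bases before the start of the RefSeq transcript (GRCm38.p6), read 5′ to 3′ along the gene, and capitals mark motif matches. The Mt2 window is chr8:94172368-94172617 on the plus strand, and that of Mt1, its neighbour on the chromosome, is chr8:94178839-94179088 on the plus strand. The Lcn2 window is chr2:32387740-32387989 and the Saa3 window is chr7:46715677-46715926, both on the minus strand.
Mt2: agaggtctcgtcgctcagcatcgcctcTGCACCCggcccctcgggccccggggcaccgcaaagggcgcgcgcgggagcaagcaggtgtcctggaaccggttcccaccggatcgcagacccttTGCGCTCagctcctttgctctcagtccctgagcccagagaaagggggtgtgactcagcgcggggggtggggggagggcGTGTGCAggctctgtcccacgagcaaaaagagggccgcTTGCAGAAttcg
Mt1: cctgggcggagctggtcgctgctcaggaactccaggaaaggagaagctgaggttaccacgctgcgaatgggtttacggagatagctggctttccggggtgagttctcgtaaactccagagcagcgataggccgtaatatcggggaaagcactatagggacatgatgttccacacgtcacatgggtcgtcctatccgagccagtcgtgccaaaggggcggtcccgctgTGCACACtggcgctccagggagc
Lcn2: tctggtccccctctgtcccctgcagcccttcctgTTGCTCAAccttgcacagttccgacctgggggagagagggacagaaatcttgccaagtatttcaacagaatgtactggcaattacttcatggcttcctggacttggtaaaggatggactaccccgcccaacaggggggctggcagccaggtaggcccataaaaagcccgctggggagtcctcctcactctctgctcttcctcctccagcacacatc
Saa3: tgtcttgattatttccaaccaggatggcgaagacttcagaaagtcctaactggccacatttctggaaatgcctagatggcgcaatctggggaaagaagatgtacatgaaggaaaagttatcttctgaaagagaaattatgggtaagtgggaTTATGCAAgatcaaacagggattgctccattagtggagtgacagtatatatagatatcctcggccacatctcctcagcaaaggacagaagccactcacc
The motifs searched, on both strands, were the core of the metal response element (TGCACNC or TGCGCNC), a C/EBP-type palindrome (TTGCNNAA), a STAT palindrome (TTCNNNGAA) and the short glucocorticoid receptor motif (TGTTCT). A promoter was found in the RefSeq table for 7 of the 9 genes, Mt1, Mt2, Lcn2, Saa3, Serpina3n, Cebpb and Fgl2. Mt2 held 3 metal response element cores, at -223, -128 and -50 from the start, and a C/EBP-type match at -12. In Mt1 a single core was found, at -23. The annotated Mt1 gene begins at base 94178883 of the chromosome, inside this window, so the window covers part of the gene. The Mt2 window ends just before its gene, so these windows cover unlike stretches and their core counts are not comparable. The Saa3 window lies within its annotated gene (46711998 to 46719615). That of Serpina3n reaches into its gene, which begins at 104406646. Of 32851 promoters searched with the same window, 21.4% held at least 1 core and 1.26% held at least 3. C/EBP-type matches stood at -216 in Lcn2 and at -99 in Saa3, and 9.56% of all promoters hold one. Fgl2 held a metal response element core at -49 and a STAT palindrome at -36, and 7.02% of all promoters hold that palindrome. Serpina3n held the short glucocorticoid receptor motif at -183, present in 16.1% of all promoters. The Cebpb window held none of these motifs. A match is a stretch of letters, and binding was not measured.

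**Figure D1:**
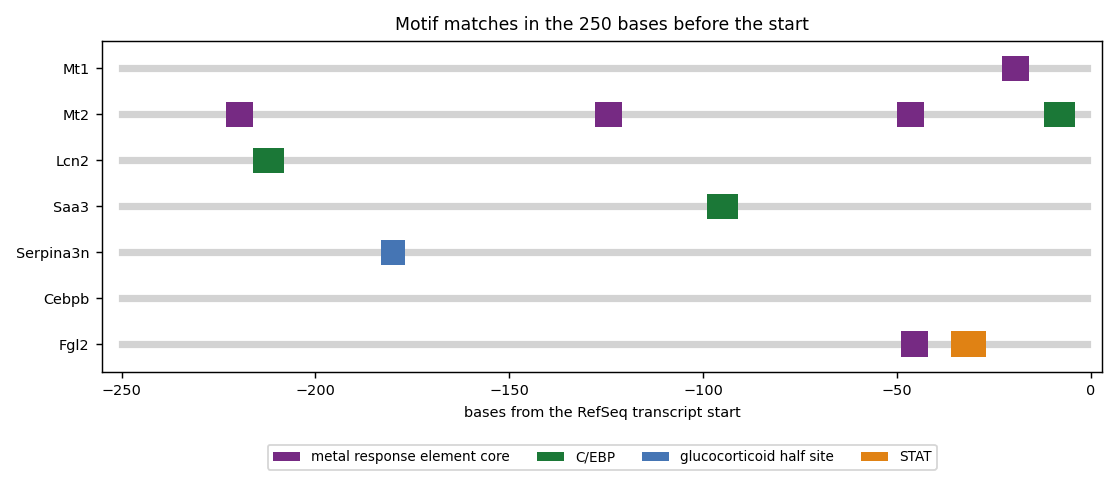
Motif matches (coloured blocks, to scale) in the 250 bases before the RefSeq transcript start of 7 genes; the horizontal axis gives bases from the start. Mt2 carries 3 metal response element cores, Mt1 and Fgl2 carry 1 each, and Cebpb carries no match. The windows of Mt1, Saa3 and Serpina3n overlap the annotated gene, so core counts of Mt1 and Mt2 are not comparable.

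Hspb8 was checked first. In the library values, probe set 1417013_at for Hspb8 was at most 5.13 in KO hearts and at least 11.09 in WT hearts (log2), and 1417014_at for Hspb8 was at most 5.92 in KO hearts and at least 10.26 in WT hearts, so KO and WT arrays did not overlap. Another Hspb8 probe set, 1456434_x_at, of a class that can bind other transcripts, reached 8.84 in KO hearts and was at least 8.79 in WT hearts. The ventricle markers were high throughout, with the mean log2 value of 8 cardiomyocyte markers between 13.7 and 14.1 on every array. Array medians lay between 5.7 and 5.8. TAC WT 3 stood apart most, with a mean correlation of 0.948 with the other arrays of its group. TAC and basal arrays belong to different array runs, so the run and TAC cannot be told apart, and the array of basal KO 3 is from another day than the other basal arrays. Nothing in the labels says that arrays are separate animals, so p-values measure only the spread between these samples.

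Pressure overload for 3 days accompanied a broad shift of the ventricle's RNA, and 6 of the 9 genes had higher group means in TAC hearts of both genotypes. These were Lcn2, Saa3, Hp, Serpina3n, Fgl2 and Mt2. Both probe sets of Cebpb were lower in TAC hearts of both genotypes. In limma's test 9 of the 13 probe sets passed an adjusted p of 0.05 in KO hearts, 7 higher and 2 lower after TAC, where 43.2% of all tested probe sets passed, 23% higher and 20.2% lower. In WT hearts 9 of 13 passed, 5 higher and 4 lower, where 50.2% of all passed, 27.8% higher and 22.4% lower. The median log2 difference of the 13 was 1.42 in KO hearts and 0.61 in WT hearts, beside 0 and 0.04 over all tested probe sets. The genes were proposed with this contrast known, and nothing is read from these counts.

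**Figure D2:**
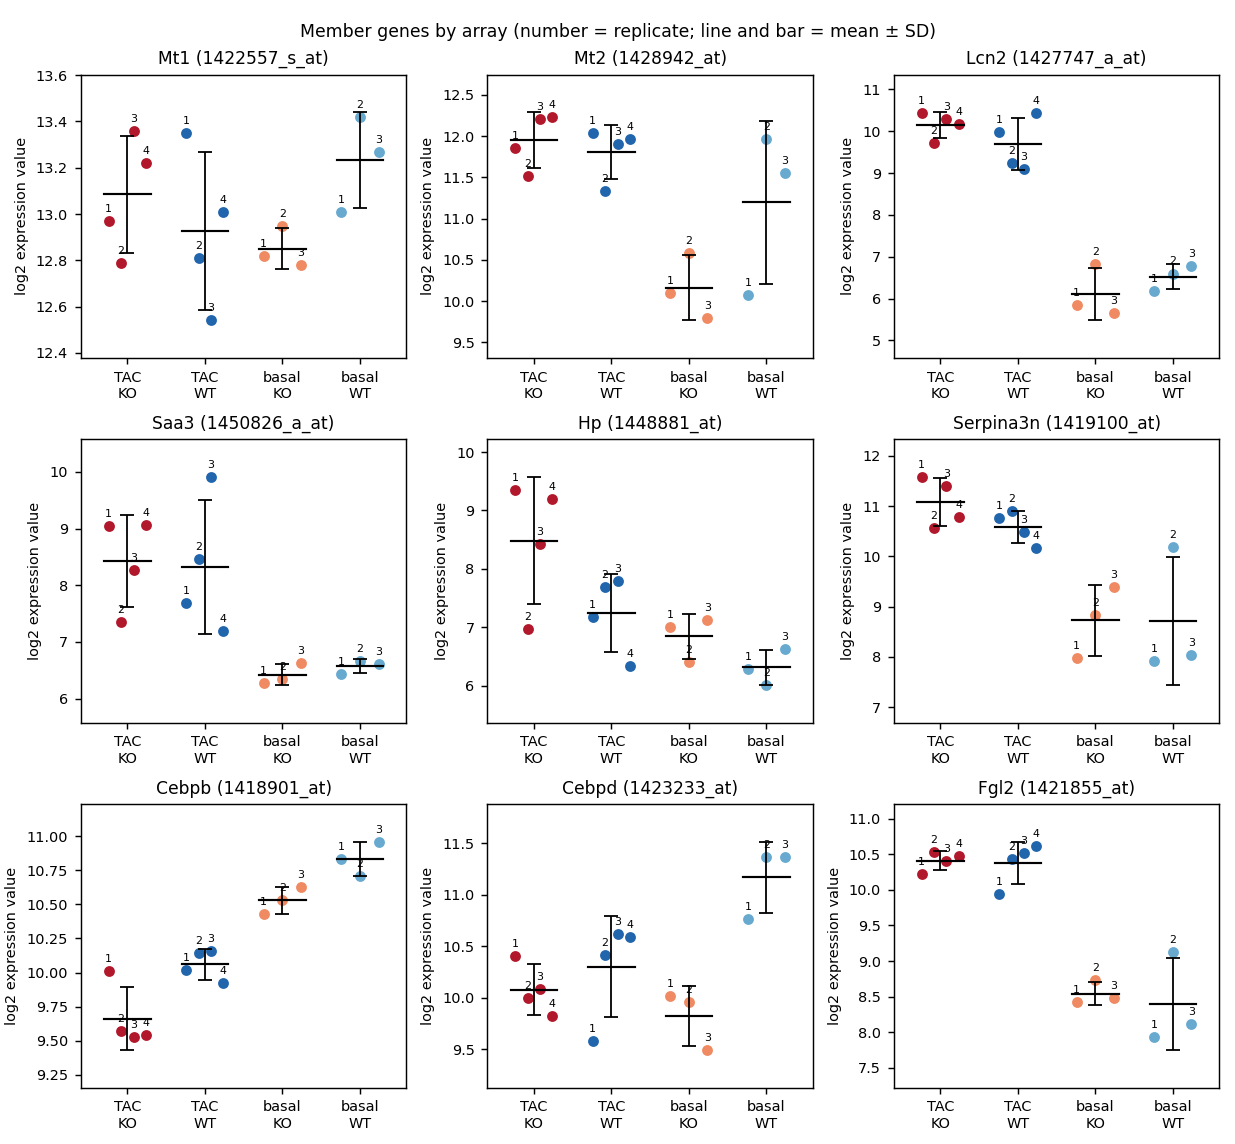
Log2 expression value of each gene on each of the 14 arrays (points, numbered by replicate), with the group mean and SD (line and bar), for the probe set with the highest mean per gene. Lcn2 and Fgl2 separate TAC from basal arrays in both genotypes, and in Hp 3 of the 4 TAC KO arrays lie above every other array.

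Lcn2 encodes lipocalin 2, a secreted protein that binds bacterial iron carriers and is made by neutrophils and many stressed tissues. Its log2 values (1427747_a_at) were 10.43, 9.71, 10.28 and 10.17 in TAC KO hearts, 9.98, 9.25, 9.10 and 10.43 in TAC WT hearts, 5.85, 6.83 and 5.65 in basal KO hearts, and 6.19, 6.60 and 6.77 in basal WT hearts. Every TAC array lay above every basal array. Relative to basal hearts, TAC KO hearts were higher by 4.04 (SE 0.33), or 16.4-fold, and TAC WT hearts by 3.17 (SE 0.33), or 9.0-fold, the widest differences among the 13 probe sets. The difference between these log2 responses was 0.87 (SE 0.47), with an adjusted p of 0.672 in limma's interaction test.

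Saa3 encodes a serum amyloid A made outside the liver, by macrophages, fat cells and epithelia of the mouse. Its log2 values were 9.05, 7.35, 8.26 and 9.06 in TAC KO hearts, 7.69, 8.47, 9.91 and 7.20 in TAC WT hearts, 6.28, 6.35 and 6.63 in basal KO hearts, and 6.43, 6.67 and 6.61 in basal WT hearts. All TAC values exceeded all basal ones, and the TAC hearts were the more spread, with an SD of 0.81 in TAC KO and 1.18 in TAC WT hearts against 0.19 in basal KO and 0.12 in basal WT hearts. The TAC difference was 2.01 (SE 0.52), or 4.03-fold, in KO hearts and 1.75 (SE 0.52), or 3.36-fold, in WT hearts. TAC WT 3, the array that stood apart, held the highest value, and without it the WT difference was 1.22.

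Hp encodes haptoglobin, which binds free haemoglobin in plasma. Its log2 values were 9.35, 6.97, 8.42 and 9.20 in TAC KO hearts, 7.17, 7.69, 7.79 and 6.34 in TAC WT hearts, 7.00, 6.41 and 7.13 in basal KO hearts, and 6.29, 6.02 and 6.63 in basal WT hearts. TAC KO 1, 3 and 4 lay above every other array, while TAC KO 2 lay among the basal KO values. The TAC difference was 1.64 (SE 0.48), or 3.11-fold, in KO hearts and 0.93 (SE 0.48), or 1.91-fold, in WT hearts, and TAC and basal arrays overlapped in both genotypes. Without basal KO 2 the difference in KO hearts was 1.42, and Hp was then not among the probe sets past the threshold.

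Serpina3n encodes a secreted inhibitor of serine proteases, related to human antichymotrypsin. Its log2 values were 11.58, 10.57, 11.39 and 10.78 in TAC KO hearts, 10.76, 10.90, 10.49 and 10.17 in TAC WT hearts, 7.97, 8.83 and 9.38 in basal KO hearts, and 7.91, 10.19 and 8.04 in basal WT hearts. In KO hearts the TAC arrays lay above the basal ones; in WT hearts basal WT 2 reached the level of TAC WT 4. The TAC difference was 2.35 (SE 0.48), or 5.11-fold, in KO hearts and 1.87 (SE 0.48), or 3.65-fold, in WT hearts.

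The metallothioneins are described side by side, and no test compared them with each other. Mt1 (1422557_s_at, a probe set of a class that can bind other transcripts) had log2 values of 12.97, 12.79, 13.36 and 13.22 in TAC KO hearts, 13.35, 12.81, 12.54 and 13.01 in TAC WT hearts, 12.82, 12.95 and 12.78 in basal KO hearts, and 13.01, 13.42 and 13.27 in basal WT hearts. All 14 values lay within 1 log2 unit, and TAC and basal arrays overlapped in both genotypes. The log2 difference was 0.235 (SE 0.18) in KO hearts and -0.31 (SE 0.18) in WT hearts. The second Mt1 probe set, 1451612_at, ranged from 6.00 to 7.83 over the 14 arrays, with a mean log2 value of 6.78 ± 0.61 in TAC KO, 7.07 ± 0.23 in TAC WT, 6.86 ± 0.13 in basal KO and 7.45 ± 0.33 in basal WT hearts (SD, n = 4, 4, 3 and 3).

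Mt2, the other ubiquitous metallothionein, had its lowest group mean in basal KO hearts. Its log2 values were 11.86, 11.52, 12.21 and 12.23 in TAC KO hearts, 12.04, 11.33, 11.90 and 11.96 in TAC WT hearts, 10.10, 10.58 and 9.80 in basal KO hearts, and 10.08, 11.96 and 11.55 in basal WT hearts. The TAC KO arrays lay above the basal KO arrays, while basal WT 2 and 3 lay within the range of the TAC WT arrays and basal WT 1 within that of the basal KO arrays. The TAC difference was 1.795 (SE 0.36), or 3.47-fold, in KO hearts and 0.61 (SE 0.36), or 1.53-fold, in WT hearts. Single basal WT arrays set this last value: it was 0.05 without basal WT 1 and 0.99 without basal WT 2, when Mt2 was among the probe sets past the threshold.

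The 2 C/EBP factors are leucine zipper proteins that bind the promoters of many acute phase genes. Cebpb (1418901_at) had log2 values of 10.01, 9.57, 9.53 and 9.54 in TAC KO hearts, 10.02, 10.14, 10.16 and 9.92 in TAC WT hearts, 10.43, 10.53 and 10.63 in basal KO hearts, and 10.83, 10.71 and 10.96 in basal WT hearts. Every TAC array was below every basal array, by 0.87 (SE 0.13) in KO hearts and 0.77 (SE 0.13) in WT hearts on the log2 scale. The second probe set, 1427844_a_at, showed the same order, with means of 7.89 ± 0.15 in TAC KO, 8.18 ± 0.23 in TAC WT, 8.77 ± 0.12 in basal KO and 9.24 ± 0.24 in basal WT hearts (SD, n = 4, 4, 3 and 3). These are mRNA levels; the amount and the activity of the protein were not measured.

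Cebpd (1423233_at) had log2 values of 10.41, 10.00, 10.08 and 9.82 in TAC KO hearts, 9.58, 10.42, 10.62 and 10.59 in TAC WT hearts, 10.02, 9.96 and 9.49 in basal KO hearts, and 10.77, 11.37 and 11.37 in basal WT hearts. The basal WT hearts were the highest of the 4 groups, and none of their arrays overlapped with another group. TAC KO and basal KO hearts overlapped, with a difference of 0.25 (SE 0.25), while TAC WT hearts were below basal WT hearts by 0.87 (SE 0.25). Without basal WT 2 this WT difference was -0.77, and the probe set was then not among those past the threshold. The second Cebpd probe set, 1456605_at, had a mean log2 value of 6.22 ± 0.04 in TAC KO, 6.04 ± 0.07 in TAC WT, 6.21 ± 0.22 in basal KO and 6.40 ± 0.18 in basal WT hearts (SD, n = 4, 4, 3 and 3), with a TAC difference of 0.01 (SE 0.12) in KO and -0.37 (SE 0.12) in WT hearts. It was likewise not counted in WT hearts without basal WT 2, at -0.32, without basal WT 3, at -0.32, and after median centring, at -0.29.

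Fgl2 encodes a fibrinogen-like protein that exists as a secreted form acting on immune cells and as a membrane form that cleaves prothrombin. Probe set 1421855_at for Fgl2 had log2 values of 10.22, 10.53, 10.41 and 10.48 in TAC KO hearts, 9.94, 10.43, 10.52 and 10.61 in TAC WT hearts, 8.42, 8.73 and 8.48 in basal KO hearts, and 7.93, 9.13 and 8.12 in basal WT hearts. TAC and basal arrays did not overlap in either genotype. The TAC difference was 1.87 (SE 0.24), or 3.65-fold, in KO hearts and 1.98 (SE 0.24), or 3.95-fold, in WT hearts. The second probe set, 1421854_at, gave 1.42 (SE 0.15) in KO and 1.54 (SE 0.15) in WT hearts. The TAC contrasts of KO and WT hearts use separate arrays and are the values plotted by probe set.

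**Figure D3:**
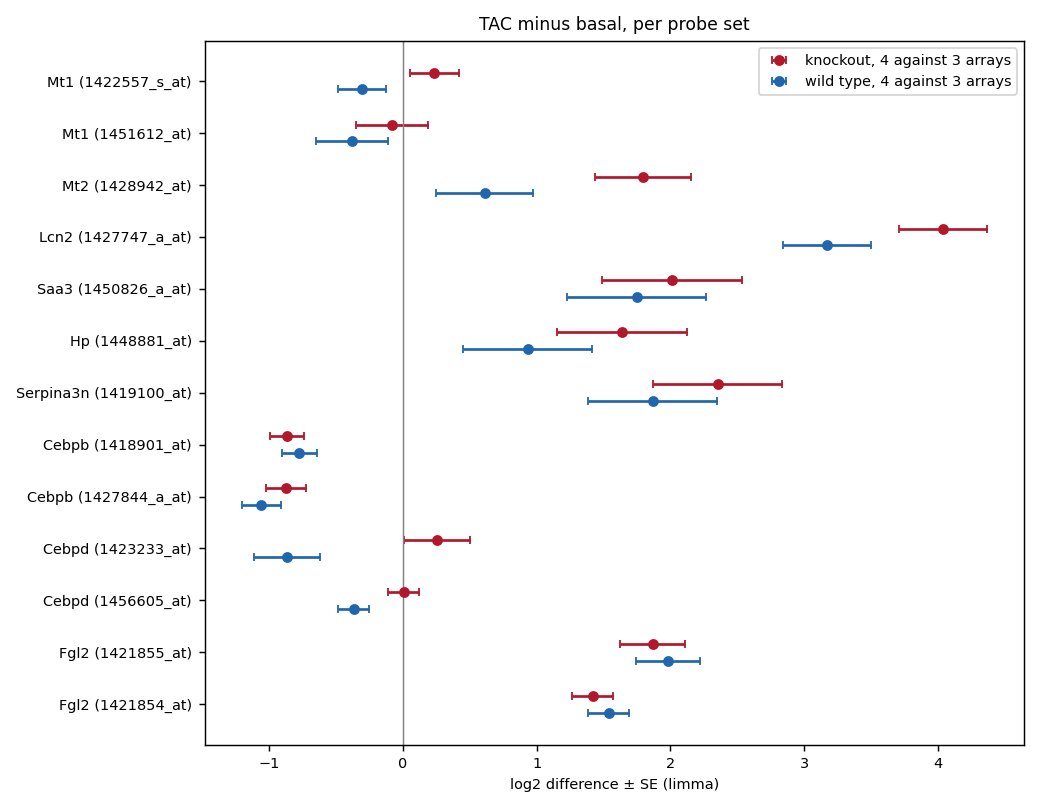
TAC minus basal difference (log2, point) with its SE (bar) for each of the 13 probe sets, in KO hearts and in WT hearts. Lcn2 lies farthest to the right in both genotypes, at 4.04 and 3.17, and both Cebpb probe sets lie left of 0 in both.

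The genotypes were then compared within each condition, where KO and WT arrays of 1 condition belong to the same array run. After TAC, 0 of the 13 probe sets passed an adjusted p of 0.05 in limma, where 0.0285% of all tested probe sets passed (7 of 24525). At an unadjusted p under 0.05 there were 2, where 8.18% of all probe sets passed. One was Hp, whose log2 value was higher in TAC KO hearts, at 8.48 ± 1.09, against 7.25 ± 0.66 in TAC WT hearts (SD, n = 4 each). The difference was 1.24 (SE 0.45, 95% interval 0.28 to 2.20), or 2.36-fold, with an adjusted p of 0.487. The groups overlapped, since TAC KO 2 lay below 3 of the 4 TAC WT arrays, and single arrays moved the difference from 0.94 (without TAC WT 4) to 1.74 (without TAC KO 2). It was 1.42 without TAC WT 3, 0.95 without TAC KO 1, 0.999 without TAC KO 4 and 0.93 with weighted arrays. The other was the Cebpb probe set 1418901_at, which was lower, with a mean log2 value of 9.66 ± 0.23 in TAC KO hearts and 10.06 ± 0.11 in TAC WT hearts (SD, n = 4 each). Its difference was -0.40 (SE 0.12, 95% interval -0.65 to -0.14; adjusted p 0.364), and with arrays weighted by their quality in limma it was -0.48 and passed, with an adjusted p of 0.0171 (0.0171 to 0.869 over all alternatives). Under these weights 12.1% of all tested probe sets passed, so this call is a share near the background. The highest TAC KO array, TAC KO 1, lay within the TAC WT range.

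For the other genes the interval of the TAC KO minus TAC WT difference included 0. It ran from -0.20 to 1.12 for Lcn2, whose difference was 0.46 (adjusted p 0.765), and from -0.46 to 1.46 for Serpina3n, whose difference was 0.50 (adjusted p 0.830). Saa3 had the widest interval, from -0.93 to 1.15 (adjusted p 0.972), around a difference of 0.11, which was 0.64 without TAC WT 3. For Mt2 the difference was 0.15, with an interval from -0.57 to 0.86 (adjusted p 0.943). Genotype effects of any size inside these intervals remain compatible with the values of these 4 arrays a group. The intervals of Fgl2 were narrower, from -0.44 to 0.51 and from -0.27 to 0.34 for its probe sets. Only the second Cebpd probe set, 1456605_at, had TAC KO arrays that did not overlap with the TAC WT arrays (all higher, by 0.18, adjusted p 0.719), where 1.6% of all tested probe sets lay higher without overlap.

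In basal hearts, too, 0 of the 13 probe sets passed in limma, where 0.00815% of all did (2 of 24525). At an unadjusted p under 0.05 there were 4, all lower in basal KO hearts, where 5.7% of all probe sets passed in either direction. They belong to Cebpd, Mt2 and Cebpb. Cebpd (1423233_at) averaged 9.82 ± 0.29 in basal KO hearts and 11.17 ± 0.35 in basal WT hearts (SD, n = 3 each), a log2 difference of -1.35 (SE 0.27, 95% interval -1.92 to -0.78), or 2.54-fold lower, with an adjusted p of 0.339. The second Cebpd probe set, 1456605_at, differed by -0.19 (SE 0.12, 95% interval -0.46 to 0.07; adjusted p 0.963), and its groups overlapped. For 1423233_at all basal KO arrays lay below all basal WT arrays, and without basal KO 3, the array of another day, the difference was -1.18. Mt2 averaged 10.16 ± 0.39 in basal KO hearts and 11.20 ± 0.99 in basal WT hearts (SD, n = 3 each), a difference of -1.04 (SE 0.39, 95% interval -1.86 to -0.21; adjusted p 0.837). It was -1.60 without basal WT 1 and -0.66 without basal WT 2, so single WT arrays set its size. Both Cebpb probe sets were lower in basal KO hearts, by 0.30 (SE 0.14, adjusted p 0.870) and by 0.47 (SE 0.16, adjusted p 0.816).

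In 5 of the 13 probe sets every basal KO array lay below every basal WT array, where 5.8% of all tested probe sets did so. The 5 stand for 3 genes, since they are both probe sets of Mt1, both of Cebpb and 1 of Cebpd (1423233_at). Mt1 was lower in basal KO hearts by 0.38 (SE 0.20, adjusted p 0.884) and by 0.59 (SE 0.29, adjusted p 0.874) on the log2 scale. Among the acute phase proteins no such order was seen, with basal KO minus WT differences of -0.41 for Lcn2 (adjusted p 0.988), -0.15 for Saa3 (adjusted p 0.999), 0.53 for Hp (adjusted p 0.992) and 0.01 for Serpina3n (adjusted p 0.999). The median difference of the 13 probe sets was -0.30, beside 0.01 over all tested probe sets.

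**Figure D4:**
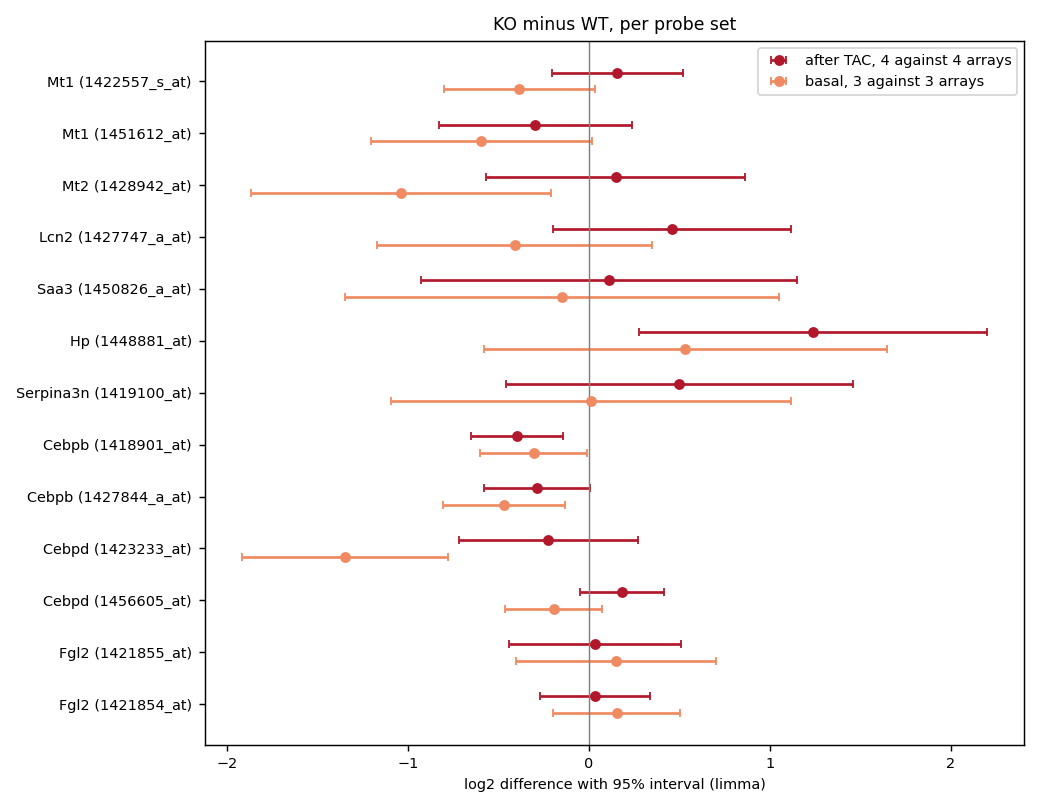
KO minus WT difference (log2, point) with its 95% interval (bar) for each of the 13 probe sets, after TAC (4 against 4 arrays) and in basal hearts (3 against 3). The intervals of Hp and the Cebpb probe set 1418901_at after TAC, and of Mt2, both Cebpb probe sets and the Cebpd probe set 1423233_at in basal hearts, lie off 0, and none of the 13 passed the adjusted threshold in either condition.

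Whether the KO effect differed between conditions was tested as an interaction. Again 0 of the 13 probe sets passed in limma, as did 0% of all tested probe sets. At an unadjusted p under 0.05 there were 3, all with a more positive signed KO minus WT difference after TAC than in basal hearts, where 7.9% of all passed in either direction. For Cebpd (1423233_at) the KO minus WT difference was -0.225 after TAC and -1.35 in basal hearts, so the smaller one was that after TAC, and the signed change was 1.12 (SE 0.35, 95% interval 0.37 to 1.88; adjusted p 0.482). For Mt2 the KO minus WT difference was 0.15 after TAC and -1.04 in basal hearts, a signed change of 1.18 (SE 0.51, 95% interval 0.09 to 2.28; adjusted p 0.598). The second Cebpd probe set gave a signed change of 0.38 (adjusted p 0.607). The interaction includes the basal arrays of the previous comparison, so it is no separate evidence of the basal difference.

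Values of single arrays within the TAC groups were then set against each other. Deviations from the group mean were correlated over the 8 TAC arrays for the 36 pairs of genes, with exact permutation within genotype (576 orders, smallest possible p 0.00174). Even at this smallest p a single pair among the 36 could not pass the adjusted threshold, so a count of 0 says little. After adjustment 0 pairs passed, and the smallest adjusted p was 0.125. That pair was Saa3 and Hp, with a Pearson r of 0.843 (exact permutation p 0.00347) and a Spearman rho of 0.881 (p 0.00347, exact permutation). Without TAC WT 3 and TAC WT 4, the 2 arrays farthest from the median by Saa3 alone, r was 0.936. TAC KO 2 had the lowest TAC KO value of both genes, and TAC WT 4 the lowest TAC WT value of both. Mt1 and Mt2 had an r of 0.634 (exact permutation p 0.137, adjusted 0.676). Over all pairs 20 of 36 correlations were positive, with a median of 0.0408.

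Markers of cells that can make these proteins moved with some of these values, and in bulk tissue fewer cells of a type and less RNA per cell cannot be told apart. Of 8 adipocyte markers 4 were measured, and their mean log2 value ranged from 9.44 to 10.2 in TAC KO, 9.33 to 9.72 in TAC WT, 9.98 to 10.2 in basal KO and 9.56 to 9.95 in basal WT hearts, while Cidec and Lep did not pass the filter. Adipoq, the fat cell hormone adiponectin, had log2 values of 6.18, 4.18, 5.97 and 7.00 in TAC KO hearts, 4.83, 5.10, 4.27 and 4.14 in TAC WT hearts, 6.67, 5.74 and 6.66 in basal KO hearts, and 5.68, 4.80 and 5.45 in basal WT hearts. For Adipoq, as for Hp, TAC KO 2 was the lowest TAC KO array. Retn, which encodes resistin, was also lowest there, with 6.60, 6.30, 6.80 and 6.52 in TAC KO hearts. The other 2 measured markers, which heart tissue also expresses outside fat cells, did not share this low: Fabp4 was at 12.97, 13.05, 13.16 and 13.18 and Lpl at 14.29, 14.22, 14.14 and 14.02 in TAC KO hearts. Adipoq was singled out after its values were seen. The part of fat cells in the Hp values was not tested.

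Of 13 neutrophil markers 5 were measured, with mean log2 values of 6.40 to 7.24 in TAC KO, 5.81 to 7.07 in TAC WT, 6.00 to 6.21 in basal KO and 5.91 to 6.50 in basal WT hearts. Ngp, Camp, Ltf, Mpo, Cxcr2 and Mmp8, genes of neutrophil granules and chemotaxis, did not pass the filter. Of the 5 measured, 2 were higher and 0 lower after TAC in KO hearts at limma's adjusted threshold. Over all genes 22.4% were higher and 21.3% lower there. In WT hearts 0 of the 5 were higher and 1 was lower, where 26.7% and 23.5% of all genes were. S100a9, a neutrophil and monocyte protein, had log2 values of 8.37, 7.56, 6.95 and 8.65 in TAC KO hearts, 5.81, 7.08, 7.89 and 7.69 in TAC WT hearts, 5.66, 6.53 and 5.57 in basal KO hearts, and 5.88, 7.05 and 6.94 in basal WT hearts, so that TAC and basal arrays overlapped in WT hearts. All 13 macrophage markers were measured, with a mean of 9.44 to 9.72 in TAC KO, 8.56 to 10.2 in TAC WT, 8.33 to 8.44 in basal KO and 7.83 to 8.21 in basal WT hearts. This mean was higher on TAC than on basal arrays in both genotypes. Among the single markers Ccr2 went the other way, lower after TAC by 0.51 (SE 0.16) in WT and by 0.21 (SE 0.16) in KO hearts. The mean of the 8 fibroblast markers lay at 11.5 to 11.7 in TAC KO, 10.8 to 11.3 in TAC WT, 10.7 to 10.9 in basal KO and 9.97 to 10.5 in basal WT hearts. These means were higher in KO than in WT hearts in both conditions without overlap. For single markers the smallest adjusted p of KO against WT in limma was 0.279 after TAC (Tcf21) and 0.837 in basal hearts (Col3a1). Basal differences ran from 0.05 for Dcn to 1.02 for Col3a1. The basal means of the macrophage and adipocyte markers were also higher in KO hearts without overlap. Among the liver cell markers Alb, Apoc3 and Fgb did not pass the filter, while Apoa1, Ttr and Tat did. The mean log2 value of those 3 was 5.60 to 5.97 in TAC KO and 5.64 to 5.83 in TAC WT hearts. In basal hearts it was 5.92 to 6.17 in KO and 5.95 to 6.40 in WT hearts. The part of macrophages, neutrophils and fibroblasts in the differences of the 9 genes was not tested.

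**Figure D5:**
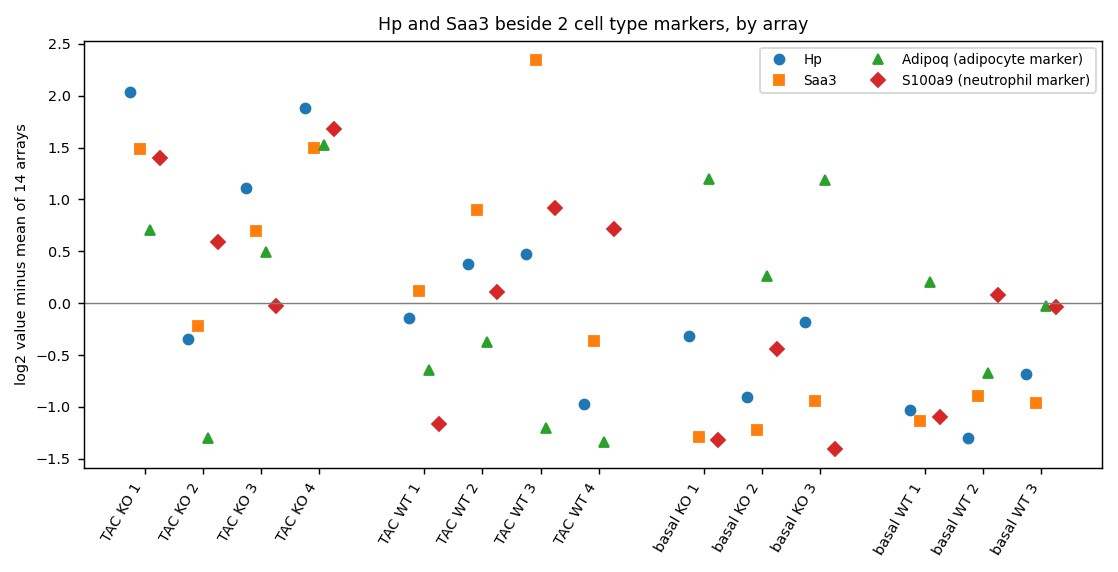
Log2 value minus the gene's mean over the 14 arrays, by array, for Hp, Saa3, the adipocyte marker Adipoq and the neutrophil marker S100a9 (points; heights of different genes are relative to each gene's own mean). Hp, Saa3 and Adipoq are lowest in TAC KO 2 among the TAC KO arrays, unlike the adipocyte markers Fabp4 and Lpl, which are not plotted, and Saa3 is highest in TAC WT 3. S100a9 is 1 of 5 measured neutrophil markers, of which 1 was called lower and 0 higher after TAC in WT hearts.

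Other genes of the acute phase, C/EBP and metallothionein families were often without a probe set above the filter. Over the whole array 24525 of 45037 probe sets other than controls passed it, a share by probe set and not by gene. Of 37 other acute phase, C/EBP and metallothionein family genes 19 had no probe set that passed it, among them the metallothionein Mt3, the serum amyloids Saa1 and Saa2, the orosomucoid Orm1 and the fibrinogen-like Fgl1, and 9 had no probe set with 1 symbol. Of the 9 measured, 0 passed in KO hearts in limma after TAC, also at an unadjusted p under 0.05, where 22.4% of all genes were higher and 21.3% lower at the adjusted threshold. In WT hearts 26.7% of all genes were higher and 23.5% lower. There 1 of the 9 was higher, the copper carrier ceruloplasmin Cp, by 0.63 (SE 0.22), and 1 was lower. Cp was named because it passed, so no p is given. This call of Cp was lost in 7 of the alternatives, among them the leaving out of basal WT 1, where the difference was 0.51. Cebpa, another C/EBP factor, differed by -0.08 in KO hearts (adjusted p 0.794) and -0.15 in WT hearts (adjusted p 0.600). Cebpg, a C/EBP factor without an activating domain, differed by -0.03 in KO hearts (adjusted p 0.882) and 0.25 in WT hearts (adjusted p 0.156).

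Among upstream cytokines, receptors and regulators, 8 of 26 measured genes rose and 2 fell after TAC in KO hearts, and 6 rose and 3 fell in WT hearts. Over all genes 22.4% rose and 21.3% fell in KO hearts and 26.7% rose and 23.5% fell in WT hearts, so the WT count of risen genes is near the background. Il6, the cytokine at the head of the response, is in these counts, with mean log2 values of 6.50 in TAC KO and 6.48 in TAC WT hearts against 3.93 in basal KO and 4.04 in basal WT hearts. The basal means lie below the filter, which Il6 passed only through TAC arrays, so no test of it is given. Osmr, the receptor of the related cytokine oncostatin M, rose by 2.02 (SE 0.32, adjusted p 0.000553) in KO hearts and by 1.45 (SE 0.32, adjusted p 0.00277) in WT hearts. Nfkbiz, a cofactor of NF-kB on the Lcn2 promoter, was higher by 1.90 in KO hearts after TAC. Its basal KO mean of 5.57 lies below the filter, so no test of that difference is given. In WT hearts Nfkbiz rose by 1.61 (adjusted p 0.0118), and this rise was 1.21 and missed the threshold without basal WT 1. Stat3, the transcription factor that these receptors activate, rose by 0.45 (adjusted p 0.0143) in KO hearts and by 0.62 (adjusted p 0.00195) in WT hearts. Its feedback inhibitor Socs3 differed by 0.35 (SE 0.46, adjusted p 0.549) in KO hearts and 0.34 (SE 0.46, adjusted p 0.555) in WT hearts, and Il1b, the other main cytokine, by 0.35 (adjusted p 0.341) and 0.17 (adjusted p 0.640). The count of risen genes in this list was 5 in KO hearts without basal KO 2 and 3 in WT hearts without basal WT 1.

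Zinc-handling genes, which set the metal supply that metallothioneins answer to, were also followed. In KO hearts 7 of 11 measured genes rose and 1 fell after TAC (22.4% and 21.3% over all genes), and in WT hearts 6 rose and 0 fell (26.7% and 23.5% over all genes; 1 fell at an unadjusted p under 0.05 in limma); without basal KO 2 the risen count in KO hearts was 3. Slc39a6, a zinc importer, had the smallest p of this list in KO hearts and was named for it, so no p is given. It was higher after TAC by 2.32 (SE 0.40) in KO hearts and by 2.18 (SE 0.40) in WT hearts. Slc39a10 had the smallest p in WT hearts, and was higher by 0.95 (SE 0.15) there and by 0.47 (SE 0.15) in KO hearts. Slc30a4, a transporter that moves zinc out of the cytosol, was likewise named for a small p. It was higher by 1.21 in KO hearts and by 1.39 in WT hearts. Slc39a14, an importer that interleukin-6 induces in liver, rose by 0.43 (adjusted p 0.0111) in KO hearts and by 0.49 (adjusted p 0.00454) in WT hearts; the KO value was 0.35 and missed the threshold without basal KO 2. Mtf1, the metal-sensing factor itself, fell by 0.33 (adjusted p 0.00965) in KO hearts and differed by -0.20 (adjusted p 0.0728) in WT hearts. Slc30a1, the zinc exporter that MTF1 controls together with the metallothioneins, differed by -0.25 (adjusted p 0.126) in KO hearts and -0.02 (adjusted p 0.902) in WT hearts.

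Glucocorticoids are the other classic inducers of metallothioneins. Of 14 measured glucocorticoid-responsive genes 0 rose and 4 fell after TAC in KO hearts, and 0 rose and 7 fell in WT hearts (1 higher in KO and 0 higher in WT hearts at an unadjusted p under 0.05 in limma). Over all genes 22.4% rose and 21.3% fell in KO hearts and 26.7% rose and 23.5% fell in WT hearts, and the KO count of fallen genes is near that share. The WT count of fallen genes was 3 without basal WT 3, TAC WT 3 or TAC WT 4 and 4 without basal WT 1. Ddit4, an inhibitor of mTOR signalling, had the smallest p of this list in WT hearts and was named for it, so no p is given. It was lower after TAC by 1.11 (SE 0.29) in KO hearts and by 2.07 (SE 0.29) in WT hearts. Cdkn1a had the smallest p in KO hearts, and was lower by 1.09 (SE 0.21) there and by 0.77 (SE 0.21) in WT hearts. Tsc22d3, the glucocorticoid-induced leucine zipper, fell by 0.72 (adjusted p 0.00810) in KO hearts and by 0.76 (adjusted p 0.00472) in WT hearts. Fkbp5, a chaperone of the glucocorticoid receptor, differed by 0.57 (SE 0.24, adjusted p 0.0717) in KO hearts and -0.16 (SE 0.24, adjusted p 0.603) in WT hearts. The KO value of Fkbp5 passed without TAC WT 1, with weighted arrays and with the KO arrays alone in the fit.

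Receptors and enzymes that take up or clear the products of these genes made the last list, with 10 measured genes. Of them 4 rose and 2 fell in KO hearts, and 3 rose and 1 fell in WT hearts, where 22.4% and 21.3% of all genes did so in KO and 26.7% and 23.5% in WT hearts, shares that 2 of 10 and 3 of 10 are close to. The KO count of fallen genes was 1 when any of basal WT 1, basal KO 1, basal KO 2, TAC WT 2 or the TAC KO arrays was left out. Cd163, the macrophage receptor that takes up haptoglobin bound to haemoglobin, rose by 1.28 (SE 0.25, adjusted p 0.00158) in KO hearts and by 0.71 (SE 0.25, adjusted p 0.0276) in WT hearts; the WT value was 0.43 and missed the threshold without basal WT 2. Hmox1, haem oxygenase, rose by 2.58 (SE 0.63, adjusted p 0.00578) in KO hearts and differed by 1.21 (SE 0.63, adjusted p 0.119) in WT hearts, where it was 1.71 and passed without TAC WT 1. Slc22a17, a receptor of lipocalin 2, fell by 0.49 (SE 0.12, adjusted p 0.00532) in KO hearts and by 0.57 (SE 0.12, adjusted p 0.00169) in WT hearts. Tfrc had the smallest p of this list in WT hearts and is named for it, so no p is given. It was higher by 2.05 (SE 0.25) there and by 1.07 (SE 0.25) in KO hearts. Differences between genotypes in these responses are covered by the interaction test, in which 0 of the 70 measured entries of these lists passed in limma (5 at an unadjusted p under 0.05). For KO against WT 0 passed after TAC (5 unadjusted) and 0 in basal hearts (3 unadjusted).

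For each of the 9 genes the genes with the most similar pattern were found by the root mean square log2 difference over the 14 arrays, after each was centred on its own mean, among 12251 other genes. For Lcn2 these were Zfp697 (0.711), S100a4 (0.726) and Postn (0.760), where Lcn2 itself had an SD of 1.84 over the arrays. For Fgl2 they were Vcan (0.268), Fhl1 (0.275) and Thbs4 (0.290), with an SD of 0.998 for Fgl2. For Mt2 they were Ugdh (0.394), Golm2 (0.447) and Sox17 (0.450), with an SD of 0.825 for Mt2. Lcn2 and Fgl2 are among the genes whose TAC and basal arrays did not overlap, and such a gap enters this measure. For Saa3 they were Mlkl (0.455), Fpr2 (0.503) and Coro1a (0.535), and for Hp they were Scara3 (0.586), Cdh11 (0.603) and Ccn5 (0.618). For Cebpb they were Enho (0.155), Rapsn (0.162) and Polg (0.163), and for Cebpd they were Errfi1 (0.388), Grrp1 (0.391) and Wt1 (0.396). Thbs4 was also near Serpina3n (0.606), beside Myh9 (0.598) and Il33 (0.632), while Mt1 had Ddx24 (0.165), Cish (0.172) and Fig4 (0.173).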

How the data were processed

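Total left ventricular RNA, taken up in Trizol and biotin-labelled (labels' protocols), was measured on 14 arrays grouped by sample title. The deposited log2 values per probe set were made by the authors with RMA, per the submitters' processing notes; its version was not stated there. No value was missing. Platform annotation gave 34958 probe sets 1 symbol, 932 several and 9211 none; 34754 symbols were matched by gene number to RefSeq (GRCm38.p6). Control probe sets (64) were left out.

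A model of the 4 groups was fitted to all 14 arrays in R 4.3.3 with limma 3.58.1 (10 residual and 3.73 prior degrees of freedom), with Benjamini-Hochberg adjustment over 24525 probe sets, and was tested on simulated data. The SE is the model's. Figures and exact permutations used Python 3.11.15. Members and lists were chosen with earlier results of these data known. Named were every member probe set, Hspb8, a set of pathway genes listed by name, some of the called genes of a list with the smallest p, and the 3 nearest genes by pattern. For a gene picked by its small p, that p is no separate test of the same contrast. For lists, a gene's probe set with the highest mean stood for it, and its p was that of the fit over all probe sets. Precision is limited by the number of arrays. Alternatives covered filter, normalization, prior, array weights, probe set choice, the arrays fitted, a replicate block and each array left out.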

Additional observations from a re-analysis of the deposited data

Results flagged for a closer look

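Within groups of 4 arrays, 4 of 26 combinations of probe set and group held an array far from the others, by Dixon's ratio of the gap to the whole range and its 95% critical value. Such a flag arises by chance in about 1 in 20, or 1.3 of those tested here. For Cebpb (1418901_at), TAC KO 1 was at 10.01, against 9.57 for the nearest TAC KO array (ratio 0.917). For the second Fgl2 probe set, 1421854_at, TAC KO 1 was at 9.97, against 10.26 for the nearest TAC KO array (ratio 0.879), and TAC WT 1 was at 9.79, against 10.27 for the nearest TAC WT array (ratio 0.889). For the second Mt1 probe set, 1451612_at, TAC WT 2 was at 7.42, against 6.98 for the nearest TAC WT array (ratio 0.917).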

How the results depend on the processing

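Of 3180 recomputed values, 3007 kept their direction and call. Many could not change direction, since filter and prior settings leave the log2 difference as it was. So does leaving out an array outside the contrast. The number of members passing after TAC stayed at 8 to 9 in KO and 8 to 10 in WT hearts when each array was left out in turn, and at 0 for KO against WT, the interaction and the pairs of genes. Over all tested probe sets 32.9% to 48.3% passed after TAC in KO hearts and 38.9% to 54.4% in WT hearts in these fits. Nothing is read from the counts after TAC. The 0 for pairs was nearly fixed in advance, since a single pair could not pass with so few orders. With 1 probe set per gene the number of members passing after TAC was 7 of 9 genes in KO and 6 of 9 in WT hearts, where 44.5% and 50.7% of all genes passed. Array weights raised the count for KO against WT after TAC to 1 of 13, the Cebpb probe set 1418901_at, while 12.1% of all tested probe sets (2956 of 24525) passed under these weights. The cause of these and the following changes was not tested. Leaving out 1 array moved calls after TAC for Hp (KO, lost without basal KO 2; WT, gained without TAC KO 2), Mt2 (WT, gained without basal WT 2), Mt1 (1422557_s_at, WT, gained at -0.45 without TAC WT 1) and Cebpd (WT, lost without basal WT 2). Fpr2, the receptor of serum amyloids, was higher by 1.06 in KO hearts after TAC. Its basal KO mean of 5.29 lies below the filter, so no test of it is given. It is among the risen genes counted in its list, a call lost in KO hearts in 15 of 23 alternatives. Whether shared replicate numbers pair the samples was not settled. Deviations of same-numbered arrays correlated at 0.579, -0.0197, -0.0848 and 0.503 after TAC and at -0.0350, 0.0654 and -0.0125 in basal hearts. Differently numbered TAC arrays correlated at -0.562 to 0.544. With the replicate block the members passing stayed at 9 in KO and 9 in WT hearts after TAC and at 0 elsewhere. With this block 38.2% of all tested probe sets passed after TAC in KO and 45.5% in WT hearts.

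Directions turned for differences near 0. In KO hearts after TAC, the second Cebpd probe set was at -0.00024 under quantile normalization, -0.017 with array weights and -0.017 with the block, the second Mt1 probe set at 0.12 with array weights and 0.069 with the block, and Cebpa at 0.0037 with the block. In WT hearts after TAC, Slc30a1 was at 0.057 with median centring and 0.10 with array weights, Il1b at -0.065 with array weights, and Il1rn at -0.10 with array weights and -0.017 with the block. Serpina3n in basal KO against WT was at -0.026 under quantile normalization, and the Fgl2 probe sets in TAC KO against WT at -0.0075 and -0.01 with median centring.

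With 1 array left out, values crossing 0 ranged as follows. In KO hearts after TAC they ran from -0.18 to 0.015 for Cebpa, -0.09 to 0.05 for Cebpg, -0.10 to 0.12 for the second Cebpd probe set and -0.29 to 0.18 for the second Mt1 probe set. In WT hearts after TAC they ran from -0.37 to 0.01 for Fkbp5, -0.18 to 0.29 for Il1b, -0.05 to 0.068 for Il1rn, -0.087 to 0.047 for Slc30a1 and -0.21 to 0.81 for Socs3. For KO against WT after TAC they ran from -0.11 to 0.11 and -0.093 to 0.11 for the Fgl2 probe sets, -0.012 to 0.29 for Mt2 and -0.26 to 0.64 for Saa3. In basal hearts they ran from -0.082 to 0.52 for the first Fgl2 probe set and -0.39 to 0.75 for Serpina3n. For the interaction they ran from -0.48 to 0.12 for the first Fgl2 probe set, -0.11 to 0.79 for Saa3 and -0.25 to 0.89 for Serpina3n.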
